A study of Homo sapiens with 3 samples.

Results

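The early transcript differences between estradiol and vehicle in T47D cells were described from 2 of the 3 arrays of the series, 1 array on each side. T47D is a human breast cancer line with estrogen receptor α and progesterone receptor. All cells were held for 4 h in medium with 10% charcoal-stripped serum, which is depleted of steroid hormones, and were then given an agent for 3 h. The vehicle cells received ethanol at 0.1%, the estradiol cells received 1 µM of the hormone, and the cells of the remaining array received 1 µM of ERα17p, a peptide taken from the sequence of the receptor. The ethanol share of the treated cells was not found in the labels. RNA was hybridised to Affymetrix HG-U133 Plus 2 arrays, on which most genes are read by a set of short probes near the 3′ end of the transcript. The deposited values were taken as log2, since their log base and baseline were not stated; they lie around 0, so they give no absolute level, and the defining markers of T47D could not be checked for presence.

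All 54675 probe sets were read. The 41091 that carried the name of exactly 1 gene and were no controls gave 19775 genes, and the value of a gene was the mean over its probe sets. A difference is the estradiol value minus the vehicle value. Genes were counted from a difference of 0.58, which is 1.5-fold. With 1 array per side there was no replicate, no test could be run, and each SD was taken across a gene's n probe sets and covers their disagreement only. Probe sets of 1 gene were said to agree when all of them differed in the same direction.

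Estradiol diffuses into the cell and binds estrogen receptor α, a nuclear receptor that then sits on DNA at estrogen response elements or is held there by other factors, and recruits coactivators or corepressors. In breast cancer cells the hormone is known to raise transcripts of growth regulators and of other receptors, and to lower transcripts of growth inhibitors, within hours. Many of the target genes carry the bound elements in distant enhancers and not in the promoter.

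The vehicle array stood apart from both others. The SD of its values over genes was 0.371, against 0.130 for estradiol and 0.139 for ERα17p. The 18S ribosomal RNA control sets were higher with estradiol than with vehicle by 1.87 ± 0.34 (SD, n = 3 probe sets), and their difference from ERα17p was 0.12 ± 0.11. The 3′ probe set of ACTB relative to its 5′ probe set differed by −0.81 between estradiol and vehicle and by −0.12 between estradiol and ERα17p, and for GAPDH these values were −0.49 and −0.10. The part of these array properties in the gene differences was not tested. The results for the leading genes and most lists are therefore given beside estradiol minus ERα17p, which does not use the vehicle array. The families are set beside it together, and the motif results are against vehicle only. This second difference shares the estradiol array with the main difference and also holds the effect of the peptide.

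Promoter sequence was taken from RefSeq, build GRCh38.p14, for the genes of 3 groups that the results turn on, and each stretch has 150 bases. Capitals mark a motif found by searching both strands. The first pair are early estrogen targets that were higher with estradiol than on both other arrays, with the GGTCA element in capitals (TGACC on the other strand), which is a single arm of the estrogen response element.
KCNK5, chr6:39229576-39229725, minus strand: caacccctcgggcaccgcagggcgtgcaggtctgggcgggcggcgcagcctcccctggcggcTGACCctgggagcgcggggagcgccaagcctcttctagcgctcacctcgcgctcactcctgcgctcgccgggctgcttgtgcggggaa
CXCL12, chr10:44385198-44385347, minus strand: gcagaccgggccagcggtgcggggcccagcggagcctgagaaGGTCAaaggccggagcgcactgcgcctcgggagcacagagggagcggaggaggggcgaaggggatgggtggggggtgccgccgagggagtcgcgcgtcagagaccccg
The element began 188 bases before the transcription start of KCNK5 and 208 bases before that of CXCL12. The next pair encode stress proteins that were lower with estradiol than with vehicle, and capitals mark TGATGNAA, a C/EBP-ATF element of the kind that ATF4 binds. It began 209 bases before the start of CHAC1 and 68 bases before that of ASNS.
CHAC1, chr15:40953221-40953370, plus strand: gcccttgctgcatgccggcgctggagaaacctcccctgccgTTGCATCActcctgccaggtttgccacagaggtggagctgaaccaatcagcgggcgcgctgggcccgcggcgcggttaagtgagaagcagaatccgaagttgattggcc
ASNS, chr7:97872409-97872558, minus strand: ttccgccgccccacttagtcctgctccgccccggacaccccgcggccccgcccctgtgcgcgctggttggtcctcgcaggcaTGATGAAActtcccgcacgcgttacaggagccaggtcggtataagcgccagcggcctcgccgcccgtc
The last 3 encode proteins of mitosis that were higher with estradiol than with vehicle, and capitals mark TTTGAA on either strand, the core of the cell cycle homology region of mitotic promoters. It began 113 bases before the start of ASPM and 18 bases before that of CENPA. In ANLN the 2 copies, at 26 and 20 bases before the start, abut each other.
ASPM, chr1:197146670-197146819, minus strand: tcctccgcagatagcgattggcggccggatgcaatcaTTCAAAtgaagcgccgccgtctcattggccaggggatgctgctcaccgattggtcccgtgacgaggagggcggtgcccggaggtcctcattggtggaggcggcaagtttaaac
CENPA, chr2:26785906-26786055, plus strand: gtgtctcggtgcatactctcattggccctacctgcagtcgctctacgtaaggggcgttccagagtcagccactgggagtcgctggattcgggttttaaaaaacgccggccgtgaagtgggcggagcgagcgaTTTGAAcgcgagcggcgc
ANLN, chr7:36389712-36389861, plus strand: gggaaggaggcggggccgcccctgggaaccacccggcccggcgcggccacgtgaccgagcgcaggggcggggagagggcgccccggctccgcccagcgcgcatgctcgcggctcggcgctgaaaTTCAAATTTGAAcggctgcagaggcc

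Over all genes, 1281 of 19775 (6.48%) were at least 1.5-fold higher with estradiol than with vehicle and 1665 (8.42%) were at least 1.5-fold lower. The median difference was −0.0043. Of the 10523 genes with at least 2 probe sets, 659 (6.26%) were that much higher with agreeing probe sets and 531 (5.05%) that much lower. Agreement, which a large mean favours by itself, held for 82.1% of the 803 higher and 92.5% of the 574 lower genes with at least 2 probe sets, against 44.3% of all such genes. The genes read by 1 probe set held 478 of the higher and 1091 of the lower differences. In estradiol minus ERα17p, 120 genes (0.607%) were at least 1.5-fold higher and 103 (0.521%) lower.

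Known early estrogen targets held large differences against both other arrays. Of 82 measured members, 24 were at least 1.5-fold higher with estradiol than with vehicle, 8 were lower and 50 lay between the limits, with a median difference of 0.21. Against ERα17p, 24 of the 82 were higher and 1 was lower, with a median of 0.35. Over all genes the corresponding shares were 6.48% and 8.42%, and 0.607% and 0.521%. The counts of 24 cover different sets of genes that overlap only in part. TFF1 and IGFBP4 count as lower than vehicle but as higher than ERα17p. MYB and RAPGEFL1 were past the limit against ERα17p and lay between the limits against vehicle. The counts of targets include genes that earlier results of these data had already singled out: of the 68 members that had not been named, 15 were at least 1.5-fold higher than with vehicle. Of 55 targets with at least 2 probe sets, 25 had sets that disagreed in direction.

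**Figure D1:**
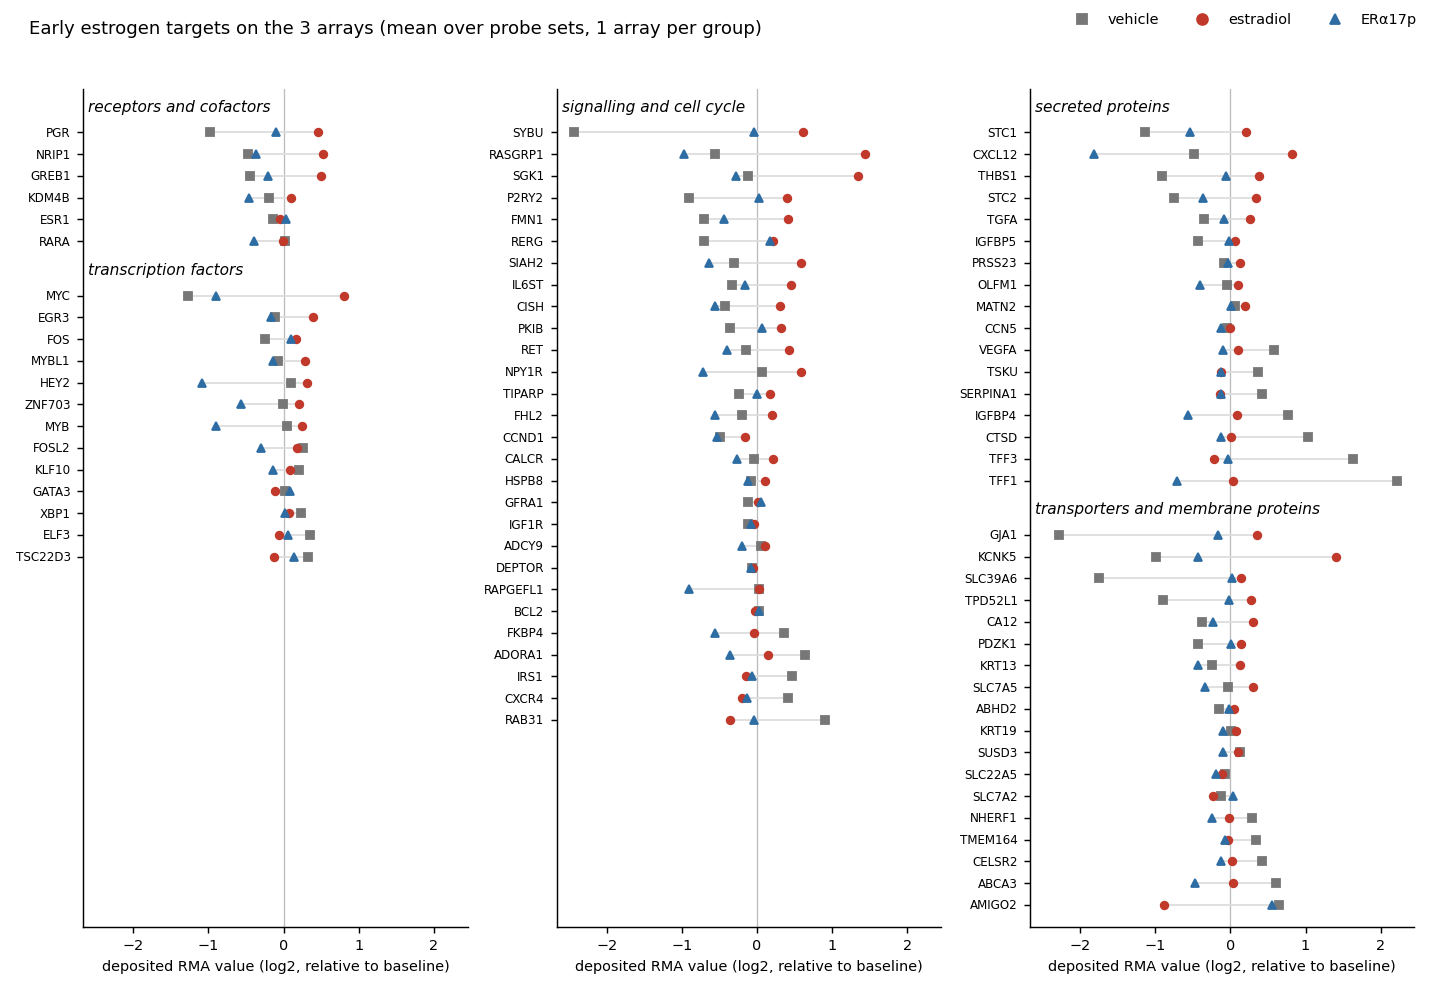
Deposited value (log2, relative to a baseline; horizontal axis) of 82 early estrogen targets on the vehicle (grey square), estradiol (red circle) and ERα17p (blue triangle) array, each point the mean over the gene's probe sets on 1 array. Genes are ordered within 5 roles by estradiol minus vehicle; MYC, RASGRP1, SGK1, KCNK5 and CXCL12 have the estradiol point far to the right of both others, while TFF1 and TFF3 have the vehicle point alone on the right.

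Among the receptors and cofactors, 3 of 6 were at least 1.5-fold higher, with a median of 0.62. PGR, which encodes the progesterone receptor, stood at −0.98 with vehicle, 0.45 with estradiol and −0.10 with ERα17p. The estradiol array was the highest, and the difference was 1.44 ± 0.28 (SD, n = 2 probe sets) from vehicle and 0.55, short of the limit, from ERα17p. NRIP1, a corepressor that nuclear receptors recruit, stood at −0.47, 0.52 and −0.37 on the same arrays, with estradiol above both, by 0.998 ± 0.80 (SD, n = 2) and 0.89. Its 2 probe sets stood at −0.07 and −0.88 with vehicle and at −0.44 and −0.30 with ERα17p, so they order these 2 arrays oppositely. GREB1, a cofactor of the receptor, stood at −0.45, 0.49 and −0.21. Its 3 probe sets gave 0.02, 1.13 and 1.67, a mean of 0.94 ± 0.84, so the size of the GREB1 difference depends on the probe set. The receptor's own transcript, ESR1, differed by 0.10 ± 0.20 over 9 probe sets that disagreed in direction, and RARA, a retinoic acid receptor, by −0.03.

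The transcription factors split into MYC and the rest. MYC, the growth-driving transcription factor, stood at −1.27 with vehicle, 0.80 with estradiol and −0.90 with ERα17p, a difference of 2.07 from vehicle and 1.70 from the peptide on its 1 probe set. It was the only 1 of 13 factors past the limit against vehicle, and the median of the group was 0.19. Against ERα17p 4 of the 13 were past it. MYB, a progenitor factor, stood at 0.05, 0.24 and −0.90, and HEY2, a Notch target, at 0.09, 0.31 and −1.09. For both the ERα17p array is the one that stands low, and estradiol lies within 0.22 of vehicle. The zinc finger factor ZNF703 followed the same order at −0.01, 0.20 and −0.57. For HEY2 the difference from vehicle is a mean of probe sets that disagreed in direction (0.22 ± 0.77, n = 2). The immediate early factors FOS and EGR3 were 0.41 and 0.50 above vehicle, short of the limit.

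Signalling genes held the most targets that were higher, 10 of 28, with 3 lower and a median of 0.36. RASGRP1, an activator of Ras, stood at −0.56, 1.44 and −0.97 in the same order of arrays. SGK1, a serum- and steroid-inducible kinase, stood at −0.13, 1.35 and −0.28. For both, each read by 1 probe set, the estradiol value is above both others by a difference of at least 1.47. SIAH2, a ubiquitin ligase read by 1 probe set, had −0.30, 0.59 and −0.64. CISH, an inhibitor of cytokine signalling, had −0.42, 0.31 and −0.56, and its 3 probe sets agreed closely at 0.73 ± 0.15 above vehicle. IL6ST, the shared signalling chain of interleukin-6 type receptors, was 0.78 ± 0.53 above vehicle over 7 probe sets, all in 1 direction. SYBU, a syntaphilin-related transport protein, had the largest positive difference of all genes, at 3.05, and stood at −2.43, 0.62 and −0.04. Its vehicle value, on 1 probe set, is the one far from the others, and the difference from ERα17p was 0.66. FMN1, an actin nucleator, was 1.13 ± 1.14 above vehicle (n = 3). The Ras-like inhibitor RERG was 0.92 above vehicle but 0.04 above ERα17p.

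Secreted proteins went both ways, with 5 of 17 higher and 4 lower. CXCL12, the chemokine ligand of CXCR4, stood at −0.48, 0.82 and −1.81, with a difference of 1.30 ± 0.36 (SD, n = 2) from vehicle. Its difference from ERα17p, 2.63, was the largest of all genes in that direction. The stanniocalcins STC1 and STC2, secreted glycoproteins, were 1.35 ± 0.60 (n = 3) and 1.09 ± 0.47 (n = 2) above vehicle and 0.75 and 0.70 above ERα17p. Against ERα17p the 3 probe sets of STC1 disagreed in direction, at −0.19, 1.15 and 1.30. THBS1, the matrix protein thrombospondin-1, was 1.29 ± 0.89 above vehicle over 7 agreeing probe sets, which ranged widely. TGFA, a ligand of the EGF receptor, lay just past the limit at 0.60 ± 0.66 and is counted as higher. The scaffold PDZK1, a membrane-associated target, was just short of it at 0.58 and is not counted.

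The classical secreted targets TFF1 and TFF3, trefoil peptides, were lower with estradiol than with vehicle. TFF1 stood at 2.22 with vehicle, 0.03 with estradiol and −0.71 with ERα17p. Against vehicle the difference was −2.19 and against ERα17p it was 0.74, so its direction depends on the array it is set against. TFF3 stood at 1.63, −0.22 and −0.03. CTSD, the lysosomal protease cathepsin D, stood at 1.04, 0.00 and −0.13, and the growth factor binding protein IGFBP4 at 0.77, 0.08 and −0.57. Each of these 4 was read by 1 probe set, and in each the vehicle array was the highest.

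Among transporters and membrane proteins 5 of 18 were higher and 1 was lower. KCNK5, a potassium channel read by 1 probe set, stood at −0.98, 1.41 and −0.43, with estradiol 2.39 above vehicle and 1.84 above ERα17p. GJA1, the gap junction protein connexin 43, stood at −2.28, 0.35 and −0.17, and SLC39A6, a zinc transporter, at −1.75, 0.14 and 0.02. For these the vehicle value was the outlying value. GJA1 was read by 1 probe set, and the 4 probe sets of SLC39A6 gave 0.24, 2.39, 2.39 and 2.54. AMIGO2, an adhesion protein read by 1 probe set, was the only early target at least 1.5-fold lower against both arrays. It stood at 0.65, −0.88 and 0.56, a difference of −1.53 from vehicle and −1.44 from ERα17p. RAB31, of the signalling group, differed by −1.26 ± 0.32 (n = 3) from vehicle and by −0.32, short of the limit, from ERα17p.

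**Figure D2:**
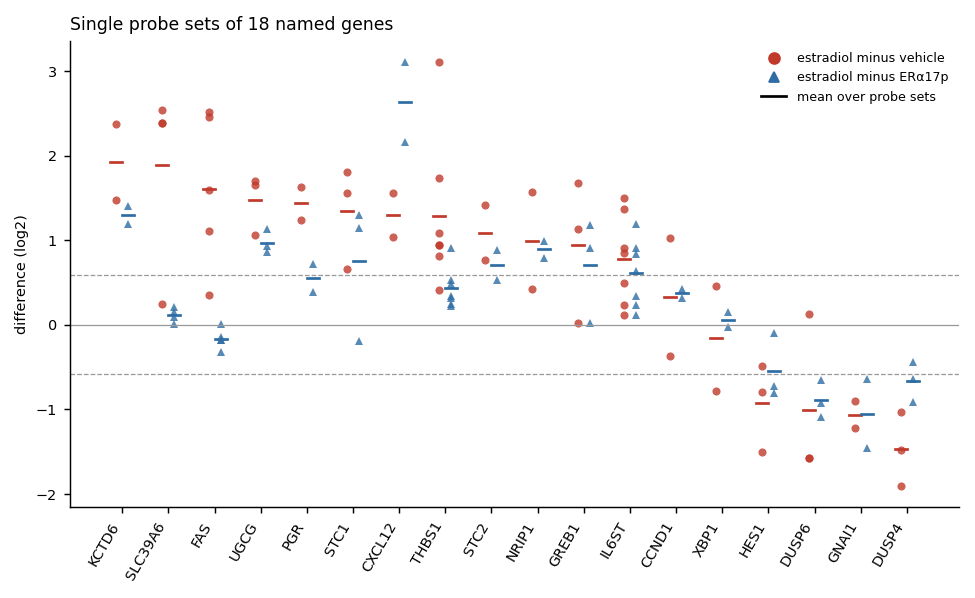
Difference (log2, vertical axis) on each probe set of 18 genes named in the text, as estradiol minus vehicle (red circles) and estradiol minus ERα17p (blue triangles), with the mean over probe sets as a short line and the 1.5-fold limits dashed. PGR and UGCG have all probe sets above the upper limit against vehicle, while CCND1, XBP1 and DUSP6 have sets on both sides of 0.

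The 58 early targets that were not at least 1.5-fold higher include several that are often used as estrogen markers. Of the 82, 12 differed from vehicle by less than 0.1 in size. These include KRT19, a luminal keratin, at 0.07 ± 0.01 (n = 2), BCL2, the survival factor, at −0.06 ± 0.42 (n = 4), IGF1R, a growth factor receptor, at 0.08 ± 0.29 (n = 5), and the secreted protein CCN5 at 0.05. The solute carrier SLC22A5 was at −0.05, the adaptor DEPTOR, an inhibitor of mTOR, at 0.01, and the exchange factor RAPGEFL1 at 0.00. RAPGEFL1 stood at 0.03 with vehicle, 0.03 with estradiol and −0.91 with ERα17p. CCND1, which encodes cyclin D1, had probe sets at −0.37 and 1.03, so no direction can be given. XBP1, a secretory pathway factor, had a mean of −0.16 ± 0.88 with probe sets on both sides of 0. In all, 28 of the 82 were below vehicle by any amount and 68 of the 82 were above ERα17p by any amount. GATA3, a luminal lineage factor, was at −0.14 ± 0.09 (n = 3).

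Genes known to be lowered early by estrogen were lower more often than higher. Of 42 measured, 8 (19.0%) were at least 1.5-fold lower and 3 (7.14%) higher, with a median of −0.17. Over all genes 8.42% were lower and 6.48% higher. Against ERα17p 7 were lower and 0 higher, with a median of −0.17, beside 0.521% lower and 0.607% higher of all genes. DDIT4, an inhibitor of mTOR that is also on the stress list, stood at 1.61 with vehicle, −0.56 with estradiol and 0.17 with ERα17p, so estradiol was the lowest. ID1 and ID3, inhibitors of differentiation factors, differed from vehicle by −0.91 and −0.72, and ID2 by −0.46 ± 0.03 (n = 2). The 7 that were lower than ERα17p were NR2F1, TGFB2, DDIT4, CITED2, ID2, BCAS1 and CCNG2, and of these DDIT4 alone was also at least 1.5-fold lower than vehicle. CCNG2 was at least 1.5-fold higher than vehicle, by 0.67, and TGFB2 was 0.55 above it, each with probe sets that disagreed. For all of the 7 but DDIT4 the ERα17p array was the highest. NR2F1, an orphan nuclear receptor, stood at −0.26, −0.32 and 1.26. ERBB2 and ERBB3, receptors of the EGF receptor family, differed from vehicle by −0.16 and −0.04, and the transcription factor KLF4 by −0.16, each with probe sets that disagreed.

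Outside these lists several genes had the estradiol array apart from both others; they were chosen after their values were seen. ADRA2A, an adrenergic receptor, stood at −1.27 with vehicle, 0.64 with estradiol and −1.32 with ERα17p. RBM24, an RNA-binding protein, stood at −0.72, 0.93 and −0.65, and KCTD6, an adaptor of ubiquitin ligases, at −0.77, 1.15 and −0.15. UGCG, which makes glucosylceramide, stood at −0.88, 0.59 and −0.39 and was 1.47 ± 0.36 above vehicle over 3 probe sets. NR5A2, an orphan nuclear receptor, stood at −0.31, 0.52 and −0.39. On the low side, PLK2, a stress-regulated kinase, stood at 0.34, −0.83 and 0.26, and GNAI1, an inhibitory G protein subunit, at 0.55, −0.52 and 0.54. SLITRK6, a membrane protein, stood at 1.15, −0.64 and 0.27, and the Notch target HES1 at 0.49, −0.44 and 0.11.

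Of 22 measured members of the DUSP family, whose best known members switch off MAP kinases, 6 were at least 1.5-fold lower with estradiol than with vehicle, 3 of them with agreeing probe sets. DUSP11 was higher and 15 lay between the limits. The shares were 27.3% lower and 4.55% higher, against 8.42% and 6.48% of all genes. DUSP4 stood at 0.87 with vehicle, −0.60 with estradiol and 0.06 with ERα17p, and its 3 probe sets agreed at −1.47 ± 0.44. DUSP5 stood at 1.36, −0.42 and 0.15. DUSP6 stood at 0.67, −0.33 and 0.55, with probe sets that disagreed against vehicle (−1.01 ± 0.98, n = 3). For all 3 the estradiol array was the lowest and ERα17p lay between it and vehicle. DUSP1 stood at 0.76, −0.07 and −0.01 and DUSP10 at 0.70, −0.06 and 0.23, in the same order, and for DUSP8, at 0.67, −0.15 and −0.44, the ERα17p array was the lowest. Against ERα17p the family had 2 members lower, DUSP4 and DUSP6, and 0 higher, beside 0.521% lower and 0.607% higher of all genes.

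Genes of mitosis and cytokinesis were higher with estradiol than with vehicle as a group. Of 65 measured, 38 (58.5%) were at least 1.5-fold higher, 19 of them with agreeing probe sets, and 0 were lower, with a median of 0.67. Over all genes 6.48% were higher and 8.42% lower. The spindle pole protein ASPM stood at −2.06 with vehicle, 0.11 with estradiol and 0.06 with ERα17p, a difference of 2.17 ± 0.75 (SD, n = 3). CDK1, the kinase that starts mitosis, stood at −1.82, 0.04 and 0.13, and the centromeric histone CENPA at −1.83, 0.12 and 0.08. The cleavage furrow protein ANLN was 1.99 ± 1.49 (n = 2) above vehicle, the kinesin KIF14 1.77 ± 0.75 (n = 2) and the kinase NEK2 1.62 ± 1.83 (n = 2). In all of these the vehicle array was low and both treated arrays lay together. Against ERα17p the median of the 65 was −0.01, with 0 higher and 0 lower. In RNA from whole cultures, fewer cells in mitosis and less of these RNAs per cell cannot be told apart. With 1 vehicle array, neither can be told apart from the array properties that set it apart, whose part was not tested.

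Genes that act earlier in the cycle did not share that direction. Of 39 genes of the G1 to S transition and replication, 4 were higher (10.3%) and 6 lower (15.4%), with a median of −0.07. The shares over all genes were 6.48% and 8.42%, and against ERα17p the median was 0.01, with 0 higher and 0 lower. Of 9 genes of the MCM helicase family, which is loaded to license replication, 2 were at least 1.5-fold lower, MCM7 at −1.04 ± 0.33 (n = 2) and MCM5 at −0.77 ± 0.04 (n = 2). MCM2 was at −0.42 and MCM6 at −0.0045. The loading factor CDT1 was at −1.15 ± 0.02 (n = 2), and CDKN1A, the inhibitor p21, at −1.11. CCNE2, which encodes a cyclin of S phase entry, was 1.12 ± 1.70 above vehicle with probe sets that disagreed. The centromere family followed mitosis, with 8 of 18 higher and 2 lower, and 8 of 51 histone genes were higher and 1 lower.

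Of the 21 lists, the stress genes had the most negative median. Of 56 genes of amino acid shortage and the unfolded protein response, 25 (44.6%) were at least 1.5-fold lower and 6 (10.7%) higher, with a median of −0.50. Over all genes 8.42% were lower and 6.48% higher. CHAC1, which degrades glutathione, had the largest negative difference of all genes, −3.71, and stood at 3.64 with vehicle, −0.07 with estradiol and −0.23 with ERα17p. INHBE, an activin subunit, stood at 3.06, −0.02 and 0.08, and DDIT3, the stress factor CHOP, at 2.82, −0.09 and −0.18. CHAC1, INHBE and DDIT3 were each read by 1 probe set. The stress sensor SESN2 was lower by −2.37 ± 0.46 (n = 2), the phosphatase subunit PPP1R15A by −1.79 ± 0.25 (n = 2) and ASNS, asparagine synthetase, by −0.78 ± 0.66 (n = 2). ATF4, the factor that drives many of these genes, was lower by −1.15 on 1 probe set. Chaperones and folding factors of the endoplasmic reticulum went both ways. HSP90B1 was 1.10 ± 0.08 (n = 2) above vehicle and DNAJB9 0.81 ± 0.32 (n = 3) above it. CALR, a lectin chaperone, was at −0.69 ± 0.50 (n = 3), HYOU1 at −0.71 and SDF2L1 at −0.67, while HSPA5 was short of the limit at −0.46 ± 0.51 (n = 2). Of 17 cytosolic tRNA synthetases 5 were lower and 2 higher, with YARS1 at −1.15 ± 0.22 (n = 2) and EPRS1 at 0.85 ± 0.98 (n = 3, sets that disagreed). Against ERα17p the stress median was 0.05, with 2 higher and 1 lower, so the wide separation is again between vehicle and both treated arrays.

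Inflammatory and immediate early genes were lower more often than higher. Over all genes 8.42% were lower and 6.48% higher. Of 39 targets of NF-kB and cytokines, 16 (41.0%) were at least 1.5-fold lower and 0 higher, with a median of −0.38. CCL20, a chemokine, stood at 2.42 with vehicle and −0.31 on both treated arrays, and the cytokine TNF at 2.30, 0.06 and −0.17. TNFAIP3, a brake on NF-kB, was lower by −2.43 ± 0.39 (n = 2), and IRF1, an interferon regulatory factor that is also on the list of genes lowered by estrogen, by −2.50 ± 0.99 (n = 2). Of 49 immediate early genes 17 (34.7%) were lower and 4 (8.16%) higher, with a median of −0.22. JUNB stood at 1.62, −0.29 and −0.04, JUN at 1.42, −0.04 and −0.04, and EGR1 at 1.19, 0.04 and 0.22. Against ERα17p the medians of these lists were −0.03 and 0.05. In the NF-kB list 1 member was higher and 0 lower, and in the immediate early list 3 were higher and 2 lower. The higher members were SGK1, MAFF and IER3, which is on both lists, and the lower members were DUSP4 and DUSP6. The shares over all genes were 0.607% higher and 0.521% lower.

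**Figure D3:**
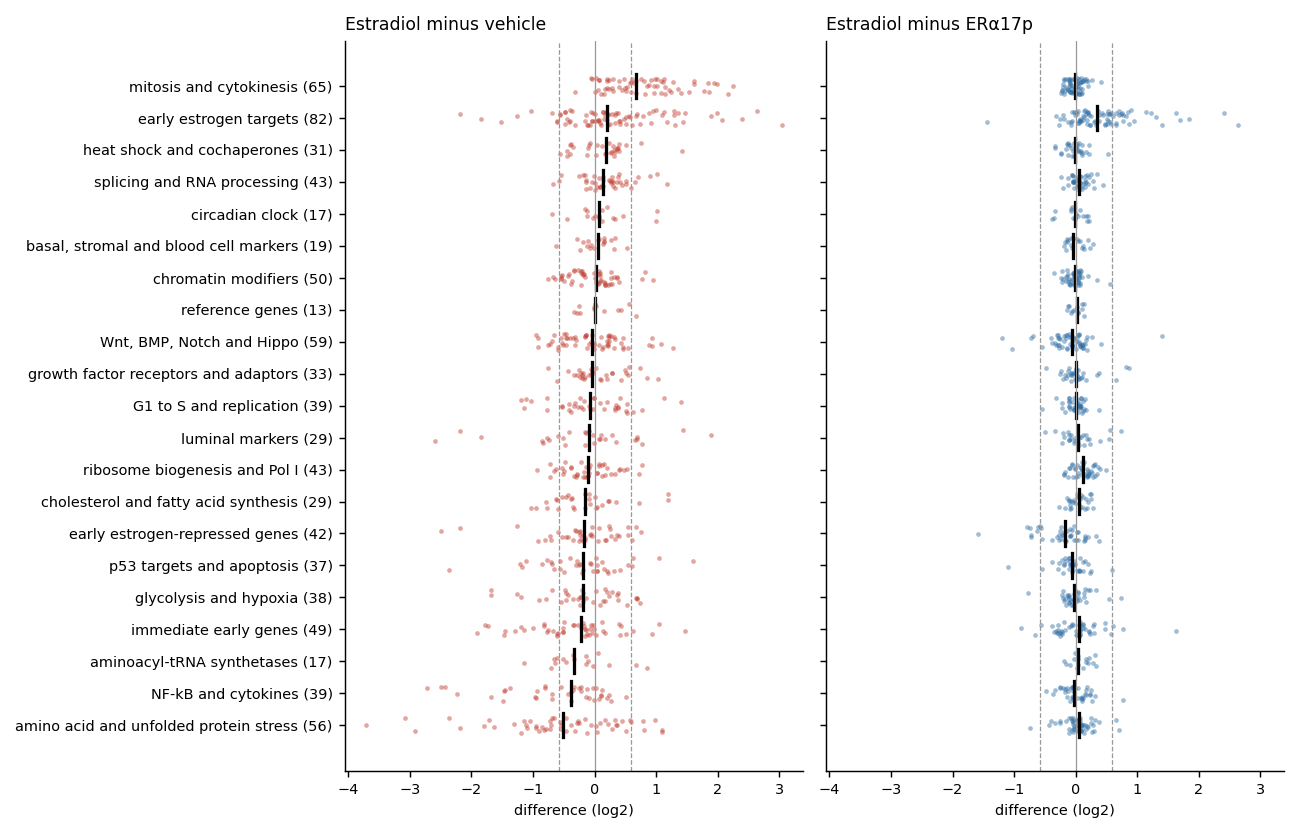
Difference (log2, horizontal axis) of each measured member of 21 gene lists, as estradiol minus vehicle on the left and estradiol minus ERα17p on the right; points are genes, spread vertically for legibility, thick bars are medians and dashed lines the 1.5-fold limits, and the number of measured members follows each name. The early estrogen targets reach a median of 0.21 on the left and 0.35 on the right, while mitosis goes from 0.67 to −0.01 and the stress list from −0.50 to 0.05.

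The shares to read the remaining lists against are the 6.48% higher and 8.42% lower of all genes. Of 38 genes of glycolysis and hypoxia 7 were lower (18.4%) and 4 higher (10.5%), with a median of −0.19, with the aldolase ALDOC at −1.68 and the enolase ENO2 at −1.69. Of 37 p53 targets and apoptosis genes 9 were lower (24.3%) and 4 higher (10.8%), with a median of −0.18; the death receptor FAS was 1.61 ± 0.92 above vehicle over 5 probe sets. Of 29 genes of cholesterol and fatty acid synthesis 7 were lower (24.1%) and 3 higher (10.3%), with a median of −0.16, SQLE, squalene epoxidase, at 1.19 ± 1.003 (n = 4, sets that disagreed) and FADS2, a desaturase, at −0.78 ± 0.19 (n = 2). Of 43 genes of ribosome biogenesis 5 were lower (11.6%) and 2 higher (4.65%), shares near those of all genes. Its median was −0.10 against vehicle and 0.12 against ERα17p. Of 59 genes of the Wnt, BMP, Notch and Hippo pathways 9 were lower (15.3%) and 5 higher (8.47%); TEAD1, a Hippo pathway factor, was 1.28 ± 0.21 (n = 3) above vehicle. Against ERα17p the medians of the glycolysis, p53, cholesterol and Wnt lists were −0.03, −0.06, 0.05 and −0.07. In the Wnt list 4 members were lower and 1 higher, and in the glycolysis list 1 was lower and 1 higher. The p53 list had 1 lower and 0 higher, and the cholesterol list 0 either way. Over all genes 0.521% were lower and 0.607% higher.

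Of 43 splicing genes 6 were higher (14.0%) and 1 lower (2.33%), of 17 clock genes 2 were higher and 1 lower, of 50 chromatin modifiers 3 were higher and 3 lower, and of 31 heat shock genes 2 were higher and 0 lower. Against ERα17p these 4 lists had 0 members past the limits. HSPA4L, a chaperone, was the highest of the heat shock genes at 1.41 ± 0.32 (n = 2). BMAL1, the clock activator, was 0.998 ± 0.14 (n = 2) above vehicle and CRY2, a clock repressor, differed by −0.69. The splicing regulators MBNL1 and MBNL2 were 1.18 ± 1.28 (n = 7) and 1.01 ± 0.70 (n = 5) above vehicle. Of 33 growth factor receptors and adaptors 3 were higher and 2 lower. Against ERα17p 3 were higher, CISH, RET and GAB2, and 0 lower, beside 0.607% higher and 0.521% lower of all genes. Among these CISH alone was also at least 1.5-fold higher than vehicle. In the difference from vehicle, 6 of 29 luminal markers were higher and 8 lower. Of 19 markers of basal, stromal and blood cells 0 were higher and 1 was lower, COL1A1 with sets that disagreed. Of 13 reference genes 1 was past the limit, the transferrin receptor TFRC at 0.68 ± 1.10 (n = 5) with sets that disagreed.

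Of 95 gene families defined by their names, 17 were described as higher, 23 as lower, some as both, and 9 had no member past 1.5-fold. A family was described when at least 5 members were measured and 15% of them, or 4 with agreeing probe sets, were past the limit. The shares to read all families against are the 6.48% higher and 8.42% lower of all genes. The rule also takes in large families below these shares. Long intergenic noncoding genes, described as both, had 1.90% of 840 higher and 2.14% lower. Antisense transcripts, also described as both, had 4.17% of 792 higher and 3.54% lower. F-box proteins, described as higher, had 6 of 60 higher and 8 lower. Members of a family can share probe sequence, so counts of close paralogs such as histones, protocadherins and metallothioneins are uncertain.

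Among families of cell adhesion, cadherins were described as higher and integrins as both. Of 72 cadherins and protocadherins, 15 were at least 1.5-fold higher and 1 was lower, with a median of 0.16. The clustered protocadherins led them: PCDHGA4 stood at −1.27 with vehicle, 0.21 with estradiol and 0.06 with ERα17p, and PCDHB8 at −1.12, 0.20 and 0.09. PCDHB6 was 0.88 ± 0.49 (n = 2) above vehicle. PCDH1 was the exception at −0.89 ± 0.19 (n = 2). Integrins split evenly, with 4 of 25 higher and 4 lower. The laminin-binding subunit ITGA6 was 1.02 ± 1.11 (n = 2) above vehicle and ITGA2, a collagen-binding subunit, 0.76 ± 0.10 (n = 2), while ITGA3 and ITGA5 differed by −0.81 and −0.63. Annexins, which bind membranes with calcium, had 3 of 11 higher. ANXA3 stood at −2.53, −0.33 and 0.43, and ANXA4 was 1.02 ± 0.29 (n = 2) above vehicle.

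Nuclear receptors other than the steroid receptor PGR also had members on the high side, 4 of 39 in all with agreeing probe sets. They were PGR, NR1D2, a clock repressor, at 1.02 ± 1.29 (n = 2), NR5A2 at 0.83 ± 0.66 (n = 4) and NR2C2 at 0.60 ± 0.33 (n = 2). NR1H3, an oxysterol receptor, differed by −1.06. The 4 higher members are 10.3% of the family, beside 6.48% of all genes. Of the 39 members 12 lay above vehicle by any amount, and the family median was −0.06. The enzymes that start mucin-type glycosylation went opposite ways: GALNT7 was 0.94 ± 0.52 (n = 2) above vehicle and GALNT6 −1.57 ± 0.01 (n = 2). Of 15 large heat shock proteins 3 were higher and 0 lower. No keratin of 47, no KLF factor of 17, no phosphodiesterase of 26 and no member of 29 in the fibroblast growth factor family was past 1.5-fold in either direction.

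Among guidance families, semaphorins with plexins and ephrins with their receptors were lower more often than higher, which also holds over all genes (8.42% lower, 6.48% higher). The lower shares were 17.2% of semaphorins and plexins and 19.0% of ephrins and their receptors. Netrins and their receptors, a family not described by the rule, had 1 of 13 lower and 1 higher. Outside guidance, 44.4% of metallothioneins were lower. Of 29 semaphorins and plexins 5 were lower, 4 of them with agreeing probe sets, and 1 was higher, SEMA3C at 1.09 ± 1.36 (n = 2). PLXND1 was the lowest at −0.73 ± 0.57 (n = 3). Of 21 ephrins and their receptors 4 were lower and 1 higher; EFNA1 stood at 1.26 with vehicle, −0.21 with estradiol and −0.09 with ERα17p, and EPHB3 was at −1.05 ± 0.12 (n = 2). Metallothioneins, which bind zinc and copper, had 4 of 9 lower and 0 higher, with MT1X at −1.19 ± 0.36 (n = 2) and MT1F at −0.96 ± 0.12 (n = 2). All 9 lay below vehicle by some amount.

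Among regulators of death and defence, 5 of 20 members of the BCL2 family were lower and 1 higher. The lower members were the death-promoting PMAIP1, BAK1, BIK, HRK and BOK, from −1.22 to −0.63, and the higher member was BID, which also promotes death, at 0.61 ± 0.33 (n = 3). Of 8 interferon regulatory factors 4 were lower, IRF1, IRF9, IRF7 and IRF3. Interferon-induced genes went both ways, with 9 of 26 lower and 4 higher: ISG20, a nuclease, was at −1.57 ± 0.19 (n = 2), whereas IFIT1 was at 1.55 and IFIH1, an RNA sensor, at 0.78 ± 0.06 (n = 3). Of 12 C/EBP and ATF factors 5 were lower and 0 higher, and of 11 AP-1 factors 5 were lower and 0 higher. Of 31 members of the TNF superfamily 5 (16.1%) were lower and 1 (3.23%) higher. The shares over all genes, 8.42% lower and 6.48% higher, apply to each of these counts.

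**Figure D4:**
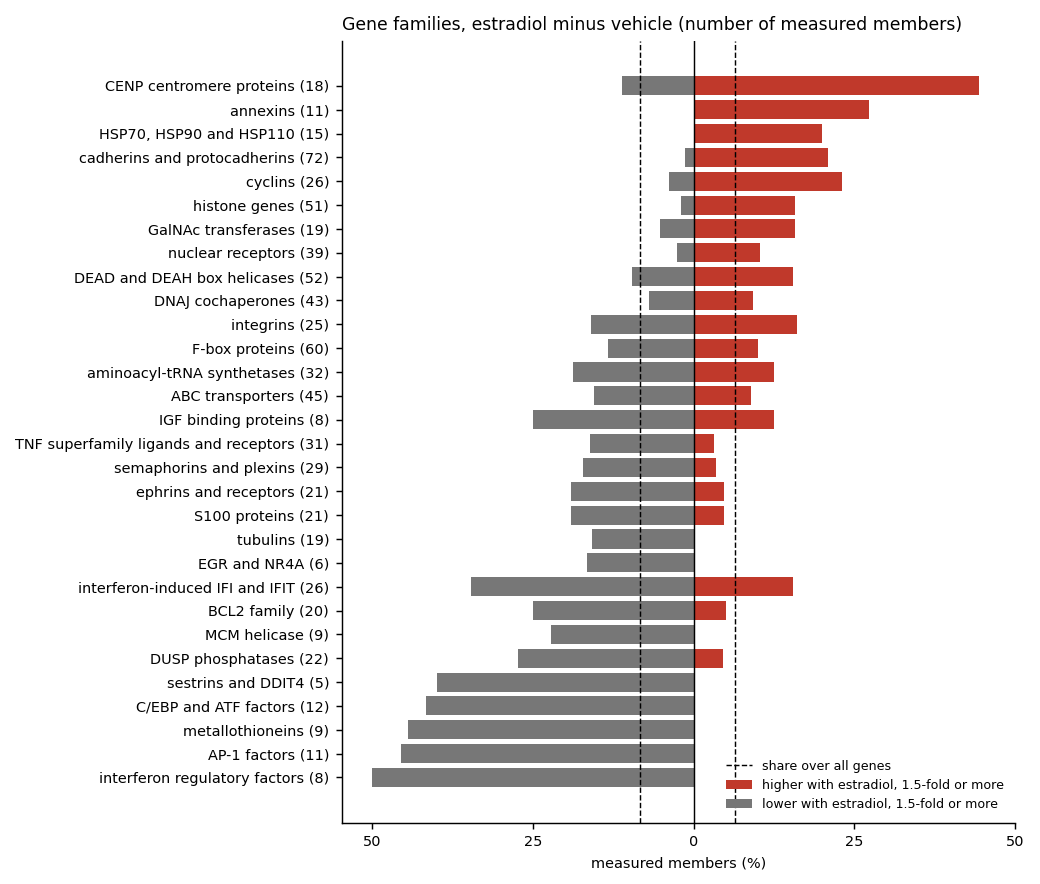
Share of measured members (%, horizontal axis) at least 1.5-fold higher (red, to the right) or lower (grey, to the left) with estradiol than with vehicle in the described families of under 100 members; the number of measured members follows each name and dashed lines mark the shares over all genes, 6.48% and 8.42%. CENP centromere proteins reach furthest right with 8 of 18, and interferon regulatory factors furthest left with 4 of 8.

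Against ERα17p the shares over all genes were 0.607% higher and 0.521% lower, and counts of 0 in families of this size lie near that background. The DUSP family had 2 members lower, nuclear receptors 1 higher and 1 lower, cyclins 1 lower, and cadherins, semaphorins, metallothioneins, interferon regulatory factors, AP-1 factors and centromere proteins 0 in either direction. The values of CENPA, PCDHGA4 and MT1X show the same arrangement, with vehicle on 1 side and the treated arrays within 0.19 of each other.

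The direction of the difference from vehicle moved with gene length and chromosome. The 659 higher genes with agreeing probe sets had a median gene length of 58938 bp and the 531 lower genes 17621 bp, against 37707 bp for all genes with at least 2 probe sets. Genes were also sorted by length into 10 groups of like size. In group 2 from the short end 3.75% were higher and 14.5% lower, and in the longest group 9.98% were higher and 2.08% lower. Gene-dense chromosomes had more lower genes, with 16.8% lower and 2.20% higher on chromosome 19, and 18.4% and 3.76% on chromosome 16. Chromosome 4 had 2.40% lower and 10.5% higher, and chromosome 18 had 1.98% and 10.9%. In estradiol minus ERα17p the medians per length group and per chromosome lay between −0.02 and 0.01. Lists with long or short members move with this trend, and its part in the list results was not tested.

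**Figure D5:**
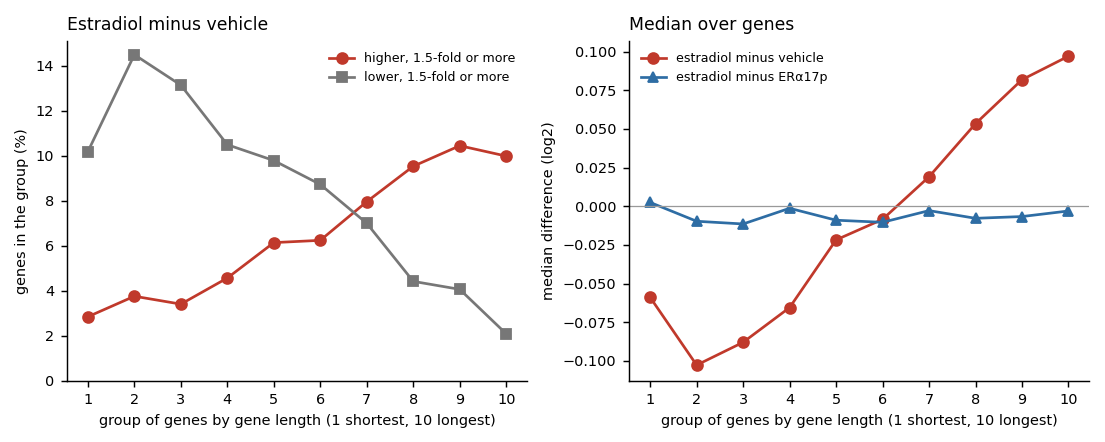
Left, share of genes (%, vertical axis) at least 1.5-fold higher (red circles) or lower (grey squares) with estradiol than with vehicle in 10 groups of genes by gene length; right, median difference (log2) per group for estradiol minus vehicle (red circles) and estradiol minus ERα17p (blue triangles). The share that was lower drops from 14.5% in group 2 to 2.08% in group 10, and the medians against ERα17p stay near 0.

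Promoter motifs were searched as a description. Windows of 250 bases before the start were searched in the 35116 promoters of the table. The full estrogen response element, GGTCANNNTGACC, was in 14 of them (0.0399%) and in 0 of the 60 early targets with a promoter, and GGTCA or its reverse was in 22 of the 60 (36.7%) against 32.6% of all promoters and 37.8% of measured genes with a promoter. The 60 are 73.2% of the 82, so that share is void as a check of the list. An absent match says only that these letters are not in the window. TTTGAA was in 32 of 56 mitotic genes (57.1%), against 13.3% of all promoters and 13.9% of measured genes. The 32 had a median difference of 0.91 with 20 higher, and the 24 without it 0.68 with 14 higher. Among all higher genes with agreeing sets TTTGAA was in 18.3%, and among lower genes in 8.68%.

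In the stress list TGATGNAA was in 8 of 48 promoters (16.7%), against 3.14% of all promoters and 3.19% of measured genes. The 8 genes had a median of −0.76, with 5 lower and 0 higher, and the 40 without it −0.34, with 16 lower and 6 higher. They include CHAC1, SLC1A5 and ASNS, whose products work in amino acid supply and use, and ATF3. The endoplasmic reticulum stress element, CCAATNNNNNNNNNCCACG, was in 7 of 48 promoters (14.6%) against 0.074% of all and 0.117% of measured genes. These were mostly chaperone genes, with a median of −0.16, 1 higher and 1 lower, and the 41 without it had a median of −0.55.These are descriptions of 1 array a side, and the windows do not show that any factor was bound.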

How the data were processed

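Total RNA of T47D cells was labelled and hybridised to Affymetrix arrays, 1 each for vehicle, estradiol and ERα17p, with groups taken from the labels. The deposited log2 values were made by the authors with RMA, per the submitters' processing notes; its version, log base, baseline and centring step were not stated in what was read here. Values were taken as log2 because RMA gives that scale. Of 54675 probe sets, 62 were controls, 41091 had 1 gene, 1801 several and 11721 no gene name here, and 41043 of those with 1 gene matched a current RefSeq record. Genes were probe-set means. 0 columns of values were left unused.

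Named genes were the 25 largest differences each way among genes with agreeing probe sets, the 15 largest each way among genes with 1 probe set, up to 6 per list or family, and any early target. The lists, families and other members were chosen with earlier results of these data known. Family name patterns were tidied, and the promoters shown, the genes with estradiol apart from both other arrays, and some further genes were picked, after values were seen. Promoters came from RefSeq; 15384 of 19775 genes (77.8%) had one.

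There was 1 array per group, so no test was run, and the number of arrays limits the precision. Alternatives were other fold limits, the median over probe sets, differences centred on their median, leaving out probe sets that may cross-hybridise, agreeing probe sets only, and ERα17p in place of vehicle. The computations were tested on simulated data. Python 3.11.15, numpy 2.4.6, pandas 2.3.3 and matplotlib 3.10.9 were used.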

Additional observations from a re-analysis of the deposited data

Results flagged for a closer look

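Probe sets without a gene name are outside the gene results. Of 11721 such sets, 542 (4.62%) were at least 1.5-fold higher with estradiol than with vehicle and 995 (8.49%) at least 1.5-fold lower. Against ERα17p, 206 were higher and 57 lower.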

How the results depend on the processing

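Of 67 alternatives computed, 46 stayed within the spread or within 1.5 times the reported count, 17 moved and 4 changed sign. The genes at least 1.5-fold higher (1281) became 310 at 2-fold, 3247 at a lower fold limit, 659 with agreeing probe sets and 120 with ERα17p in place of vehicle. The lower genes (1665) became 323, 3924, 531 and 103. Early targets that were higher (24) became 15 at 2-fold, and 15 over the 68 members not named earlier, an alternative chosen after seeing the data. Their median of 0.21 became 0.64 over the 30 with agreeing probe sets. With ERα17p in place of vehicle the sign changed for the medians of mitosis (−0.0077), stress (0.045) and immediate early genes (0.045), and for TFF1 (0.74); the cause was not tested. No paired analysis was possible because each group has 1 array and the labels give no replicate numbers, and leaving out a replicate leaves no group. Signal over background is unknown, since no absolute level was kept.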
